A study of Homo sapiens with 22 samples.

Results

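Cluster 9 is a group of 622 WM989 cells that the authors labelled primed and that mostly carried a G2M or S phase label. Its members were the cells whose deposited cluster number was 9 in the single-cell RNA-seq table of untreated, lineage-barcoded WM989 cells, which held 12531 cells, so cluster 9 made up 4.96% of them and 21.9% of the 2843 primed cells. WM989 is an established BRAF-mutant melanoma cell line in which a minority of cells, called primed, survive targeted inhibitors, and the rest are called drug-susceptible. The series asked how cells move between these states, with untreated WM989 and WM983B cells, WM989 cells left untreated (Control) or given TGFB1, a TGF-beta receptor inhibitor (TGFBRi) or a PI3K inhibitor (PI3Ki), and ATAC-seq of untreated WM989 cells sorted on EGFR and NGFR. The 3 single-cell tables held 54001 cells in all. The other primed clusters of the same table were cluster 2 with 1588 cells and cluster 8 with 633 cells, and the drug-susceptible clusters compared here were cluster 6 with 747 cells and cluster 7 with 730 cells, nearly all labelled G2M.

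All cells of the untreated WM989 table came from the same line and the same GEO sample. The table splits them into 8 chip wells, 4 in each of the reps r1 and r2. The wells came from cultures begun with sorted cells, a mixed sort and a sort high for EGFR and NGFR, and each culture was loaded on a pair of wells; the labels do not say which well held which sort, so wells were not grouped by it. The wells differed widely in makeup. Primed cells were 56.9, 62.4, 79.7 and 76.9% of the cells in wells 1, 2, 5 and 6 and 7.87, 6.85, 9.17 and 9.42% in wells 3, 4, 7 and 8, with wells 1 to 4 in r1 and 5 to 8 in r2. Clusters 2 and 8 as a pair were mostly cluster 2 in wells 1, 2, 5 and 6, with 200, 783, 221 and 315 cells of it against 13, 95, 17 and 19 of cluster 8. They were mostly cluster 8 in wells 3, 4, 7 and 8, with 90, 193, 116 and 90 cells of it against 9, 7, 25 and 28 of cluster 2, so ratios to them had another mix of cells as the reference from well to well. Wells are repeat measurements within a small number of cultures and not independent replicates. Cluster numbers were made from the same expression values, so every value of cluster 9 against another cluster is a description and carries no p-value. Tests were run on the treatment experiment and on the ATAC-seq libraries, which did not enter the clustering of the untreated table.

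A primed melanoma cell has lost much of its melanocyte program and expresses receptors such as AXL, EGFR and NGFR, secreted factors, proteases and extracellular matrix genes. The cell cycle runs from G1 through DNA replication in S to G2 and mitosis. D-type cyclins with CDK4 and CDK6, and then E-type cyclins with CDK2, open S phase, CDK inhibitors such as CDKN1A hold them back, and CDK1 with the A and B cyclins drives mitosis. Many mitotic genes share promoter elements, a CCAAT box and a cell cycle homology region (CHR), through which they are silenced in G1 and expressed in G2 and M.

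The median cell of cluster 9 had 72036 UMIs, against 62895 in cluster 2, 38061 in cluster 8, 43689 in cluster 6 and 64334.5 in cluster 7. Wells differed in depth, with well medians of 36073 to 120329 UMIs in cluster 9 and 29654 to 98576 in cluster 8. The median mitochondrial percent of cluster 9 was 7.49, close to the 7.70 of cluster 2 and below the 12.7 and 13.6 of clusters 6 and 7. A cell barcode was found in more than 1 well for 38 cells, none of them in cluster 9. Transcripts of leukocyte markers summed to 46.0 to 139 CPM (UMI counts scaled to the same total) per well in cluster 9 and to 48.5 to 136 CPM in clusters 2 and 8. Endothelial and epithelial markers summed to 111 to 193 and 116 to 209 CPM, and fibroblast markers, which primed cells also express, to 153 to 394 and 106 to 364 CPM. In cluster 9, 2 of 8 leukocyte, 3 of 9 endothelial and epithelial and 1 of 9 fibroblast markers had no UMI.

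Cluster 9 held most of the primed cells that were in cycle. Of its 622 cells, 391 were labelled G2M (62.9%), 160 S and 71 G1, so that 88.6% were in S or G2M (95% exact binomial interval 85.8 to 91.0, which covers counting error only). In clusters 2 and 8 together 8.87% of cells were in S or G2M. Cluster 9 contained 73.7% of all primed cells in S or G2M, and between 62.5 and 81.0% in single wells.

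The share of primed cells in cluster 9 ran over the 8 wells from 16.8% to 31.0%, with a median of 24.6%. The wells of r1 lay between 16.8 and 24.0% and those of r2 between 25.3 and 31.0%, so the reps did not overlap. Summed over wells, the share was 18.4% in r1 and 27.0% in r2. Within r1 it was 16.8 and 17.1% in wells 1 and 2 and 21.4 and 24.0% in wells 3 and 4, and within r2 it was 26.8 and 25.3% in wells 5 and 6 and 28.1 and 31.0% in wells 7 and 8. The S and G2M share of all primed cells was 21.9 and 21.3% in wells 1 and 2, 31.7 and 31.9% in wells 3 and 4, 25.8 and 27.3% in wells 5 and 6 and 36.7 and 37.4% in wells 7 and 8. Within each rep both shares were lower in the pair of wells with the higher percent of primed cells. Primed cells as a whole were less often in S or G2M than drug-susceptible cells in every well, at 21.3 to 37.4% against 68.1 to 79.9%. Within cluster 9 the S and G2M share was 92.1 to 93.4% in 6 wells and 78.2% and 80.5% in wells 5 and 6. These 2 wells held 19 and 22 of the 71 cells labelled G1. The G1-labelled cells of cluster 9 had a median of 102121 UMIs, above the 71766 of its G2M-labelled cells. These medians pool wells of unlike depth, and wells 5 and 6 held 48 and 67 of the 391 G2M-labelled cells.

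**Figure D1:**
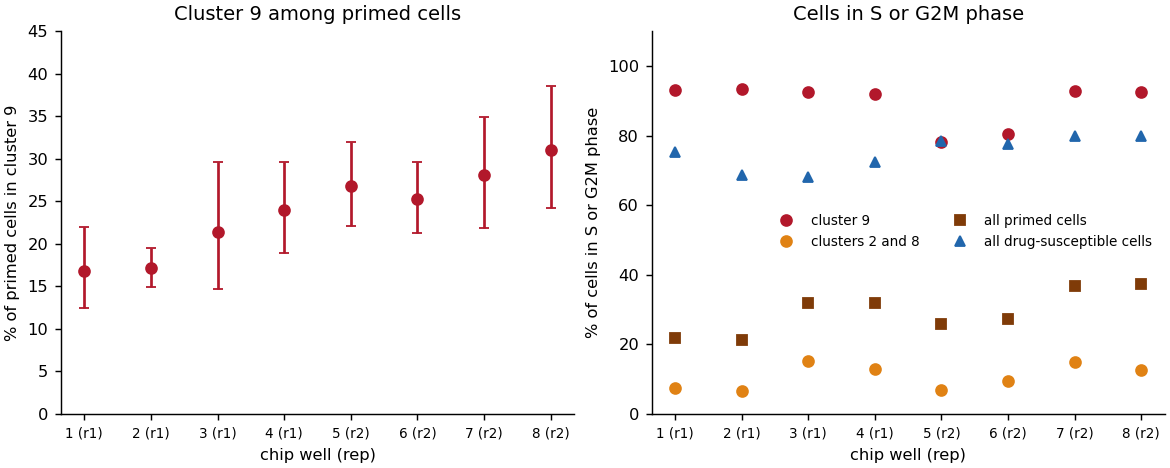
Left, percent of primed cells that fell in cluster 9 in each chip well, with 95% exact binomial intervals; right, percent of cells labelled S or G2M in cluster 9, clusters 2 and 8, all primed cells and all drug-susceptible cells of each well. The share of cluster 9 is higher in the 4 wells of r2 than in the 4 wells of r1, and the S and G2M share of all primed cells reaches at most 37.4% while that of drug-susceptible cells is at least 68.1%.

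The 7 genes given as markers of cluster 9 were IGFN1, IL11, STC1, AXL, FAP, PLAUR and HJURP. IL11 is a secreted cytokine, STC1 a secreted glycoprotein, AXL a receptor tyrosine kinase, FAP a cell surface protease and PLAUR the urokinase receptor. HJURP is the chaperone that places the histone variant CENP-A at centromeres. Levels are given in CPM of UMI counts summed over the cells of a cluster in a well, and ratios as log2 of CPM plus 1, taken within wells and averaged.

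IL11 was at 98.6 CPM in the lowest well of cluster 9, 191 in the median and 265 in the highest. In clusters 2 and 8 it was at 45.2, 87.8 and 124 CPM, and in clusters 6 and 7, in the 7 wells with at least 10 such cells, at 0.13, 1.15 and 4.16 CPM. Cluster 9 was above clusters 2 and 8 in 7 of 8 wells, with a mean log2 ratio of 1.02 ± 0.67 (SD, n = 8 wells), and the ranges overlapped. Well 8 had a ratio of -0.02. Against cluster 2 alone the mean ratio was 1.16 and against cluster 8 alone 0.77. A UMI of IL11 was seen in 91.2% of cluster 9 cells, 77.1% of cluster 2, 53.4% of cluster 8 and 4.13% of clusters 6 and 7. After each cell was thinned to 10000 UMIs these shares were 59.6, 39.0, 27.5 and 0.78%, in the same order.

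STC1 ranged in cluster 9 from 156 to 846 CPM with a median of 306, and in clusters 2 and 8 from 73.2 to 449 CPM with a median of 236. The ranges overlapped, and the mean log2 ratio was 0.63 ± 0.51, with well 8 at -0.45. Against cluster 2 alone, in the 6 wells where it had enough cells, the mean ratio was -0.01, and cluster 8 had 65.5, 111 and 334 CPM (lowest, median and highest well), with a mean ratio of 1.095. IGFN1, a protein with immunoglobulin and fibronectin domains, had a log2 ratio of 0.48 ± 0.55, with well 3 at -0.64. AXL had 0.59 ± 0.28, with well 3 at -0.07.

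PLAUR and FAP were higher in cluster 9 than in clusters 2 and 8 in each of the 8 wells. PLAUR was at 154, 313 and 355 CPM (lowest, median and highest well) against 106, 194 and 222 CPM, a log2 ratio of 0.65 ± 0.10. FAP was at 27.5, 40.3 and 49.0 CPM against 19.0, 26.4 and 36.0 CPM, a log2 ratio of 0.51 ± 0.28. None of these 6 markers had a mean 2-fold difference from the other primed clusters with the same sign in every well.

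HJURP stood apart from them. It was at 120, 155 and 195 CPM in cluster 9, at 6.36, 12.2 and 20.1 CPM in clusters 2 and 8, and at 47.5, 52.8 and 71.8 CPM in clusters 6 and 7. The 3 ranges did not overlap, and the log2 ratio was 3.63 ± 0.67 to clusters 2 and 8 and 1.45 ± 0.43 to clusters 6 and 7 (6 wells). At 10000 UMIs a cell, HJURP was seen in 67.7% of cluster 9 cells, 8.46% of cluster 2, 8.92% of cluster 8 and 36.9% of clusters 6 and 7.

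The markers also differed between the reps. IGFN1 in cluster 9 was at 76.3 to 98.1 CPM in the wells of r1 and at 246 to 424 CPM in those of r2. AXL was at 27.5 to 41.2 CPM and 60.0 to 95.02 CPM. Clusters 2 and 8 moved the same way for AXL, at 18.2 to 28.9 CPM in r1 and 34.2 to 54.1 CPM in r2. The log2 ratio of IGFN1 to clusters 2 and 8 overlapped between the reps, at -0.64 to 0.89 in r1 and 0.14 to 1.02 in r2. The HJURP level in cluster 9 overlapped between the reps, at 144 to 195 and 120 to 157 CPM, but its log2 ratio to clusters 2 and 8 did not, at 3.90 to 4.62 in r1 and 2.87 to 3.29 in r2. Its ratio to clusters 6 and 7 was 1.47 to 1.87 in the 4 wells of r1 and 0.73 and 1.17 in the 2 wells of r2 that had one.

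**Figure D2:**
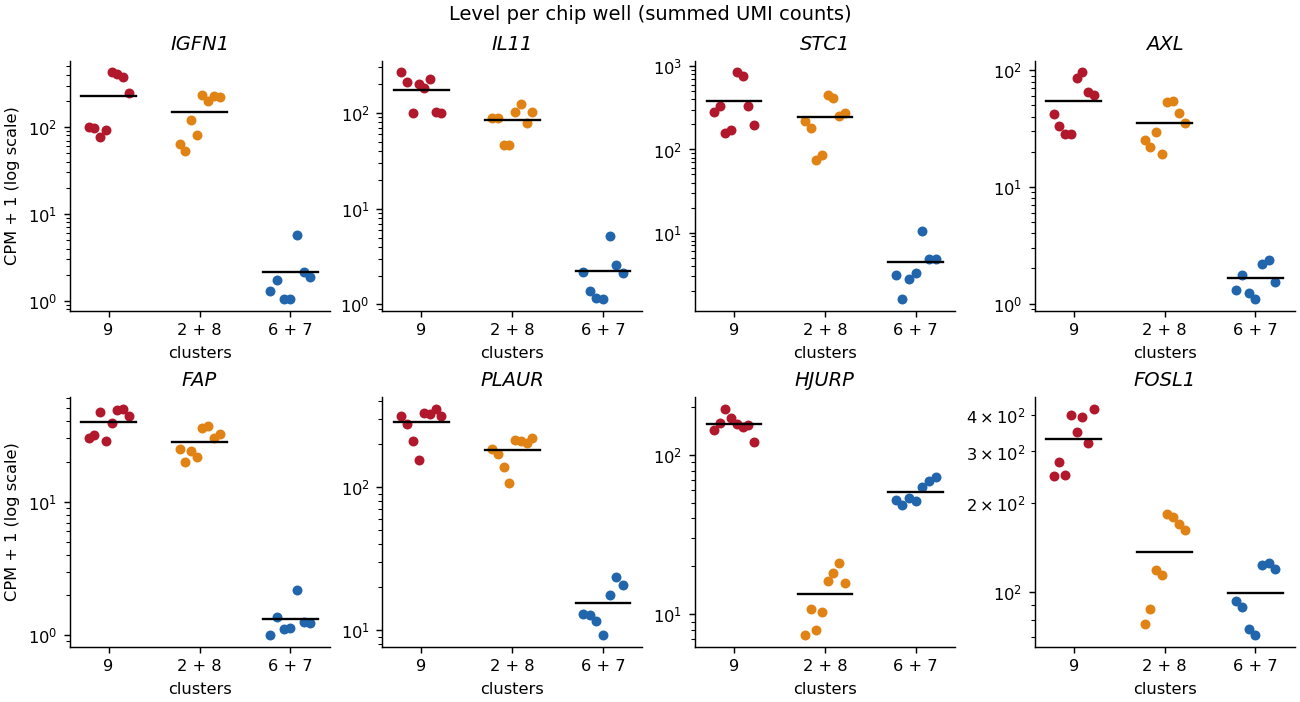
CPM plus 1 on a log axis for the 7 markers and FOSL1; each point is a chip well, and lines are means over wells of cluster 9, clusters 2 and 8 and clusters 6 and 7 (7 wells with at least 10 cells). For IGFN1, IL11, STC1, AXL, FAP and PLAUR the wells of cluster 9 overlap those of clusters 2 and 8 and lie above those of clusters 6 and 7, whereas for HJURP and FOSL1 they lie above both.

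Against the other primed clusters, cluster 9 was set apart by genes of S phase and mitosis. A gene was called where its mean within-well difference was at least 2-fold and had the same sign in every well, among genes with at least 20 CPM in either group. Of 6106 genes, 251 were higher in cluster 9 than in clusters 2 and 8 (4.11%) and 18 were lower (0.295%). The steepest were TOP2A, the topoisomerase of chromosome separation, with a log2 ratio of 3.70 ± 0.59, then HJURP, the ubiquitin-conjugating enzyme UBE2C (3.52 ± 0.70), the spindle pole protein ASPM (3.47 ± 0.64) and the centromeric histone CENPA (3.37 ± 0.79).

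Of 52 genes commonly used to score G2M, 51 passed the level filter and 49 of these were called higher, with a median log2 ratio of 2.67, beside 0.08 over all genes. Of these 51 genes, 23 reached 20 CPM only in cluster 9, so the filter itself favoured a higher call for them, and 26 of the 28 that reached it in both groups were higher. Of 34 measured S phase genes 14 were higher (median 0.94). Of these 34 genes 9 reached 20 CPM only in cluster 9, and 9 of the 25 that reached it in both groups were higher. Of 25 centromere and kinetochore genes 23 were higher (median 2.23). Of these 25 genes 13 reached 20 CPM only in cluster 9, and 11 of the 12 that reached it in both groups were higher. The lists that describe the primed state are read against the 4.11% of all genes called higher and 0.295% called lower, and counts of 0 in lists this short are near those shares. Of 21 primed markers none was higher and DKK1 was lower (median -0.17), and no gene was called among 7 cytokines and chemokines, 15 proteases and their inhibitors or 16 extracellular matrix and integrin genes. Of 7 AP-1 factors only FOSL1 was called, at a log2 ratio of 1.32 ± 0.35.

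Of 8 measured replication-dependent histone genes 6 were higher (median 1.99), and of 23 cyclins, CDKs and inhibitors 7 were higher (median 0.52). Of these, 2 histone genes and 6 cyclins, CDKs and inhibitors reached 20 CPM only in cluster 9. Among those that reached it in both groups, 4 of 6 and 3 of 17 were higher. A lower gene was called in each of 4 further lists, MLANA among 7 melanocyte genes, IFIT2 among 9 interferon-stimulated genes, and CTGF among both 10 TGF-beta targets and 7 YAP and TEAD targets. IFIT2 and CTGF, like DKK1, reached 20 CPM only in clusters 2 and 8, so the filter favoured a lower call for them. No gene was called among 14 of hypoxia and glycolysis, 11 of ERK feedback, 1 leukocyte, 3 endothelial and epithelial and 3 fibroblast genes that passed the filter.

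With all phases included, the genes that set cluster 9 apart were nearly those that set cycling drug-susceptible cells apart from their G1 cells. Clusters 6 and 7 had 242 genes higher than in G1-labelled drug-susceptible cells (4.11% of 5889) and 12 lower (0.204%). Of the 251 genes, 196 were among these 242, which is 78.1% of the first list and 81.0% of the second. A wider limit, a log2 difference over 0.5 in that second comparison, took in 245 of the 251 (97.6%). Over the 242 cycle genes the median log2 ratio was 1.58 in the primed comparison and 1.77 in the drug-susceptible one. Phase labels differed between the groups of both pairs, so this overlap is not independent of them. With cells of a single phase label on both sides and counts summed over wells, more genes lay outside the limit. Summed counts drop the rule of the same sign in every well, so these calls are looser. As described below, the G1-labelled cells of cluster 9 held mitotic transcripts. The G2M-labelled cells of clusters 2 and 8 had more melanocyte transcripts than their G1-labelled cells. In G2M-labelled cells, of which clusters 2 and 8 held 52, 130 genes were higher in cluster 9, 74 of them outside it, and 78 were lower. In G1-labelled cells 280 were higher, 33 of them outside it, and 76 were lower.

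Over all phases, the 6 genes outside that limit were the histone genes HIST2H2AC, HIST1H1D and HIST1H1E, the S phase cyclin CCNE2, POLD3, a subunit of DNA polymerase delta, and CA8, a carbonic anhydrase-related protein. HIST2H2AC was at 64.5 CPM against 14.6 in clusters 2 and 8. CCNE2 was at 21.8 against 6.26 CPM and POLD3 at 91.0 against 41.0 CPM. Clusters 6 and 7 held no cells labelled S, whereas cluster 9 held 160, and CCNE2 in S-labelled cells was at 80.2 CPM in cluster 9 and 24.7 CPM in all drug-susceptible cells. Histone genes have near-identical copies, so their separate counts are uncertain.

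**Figure D3:**
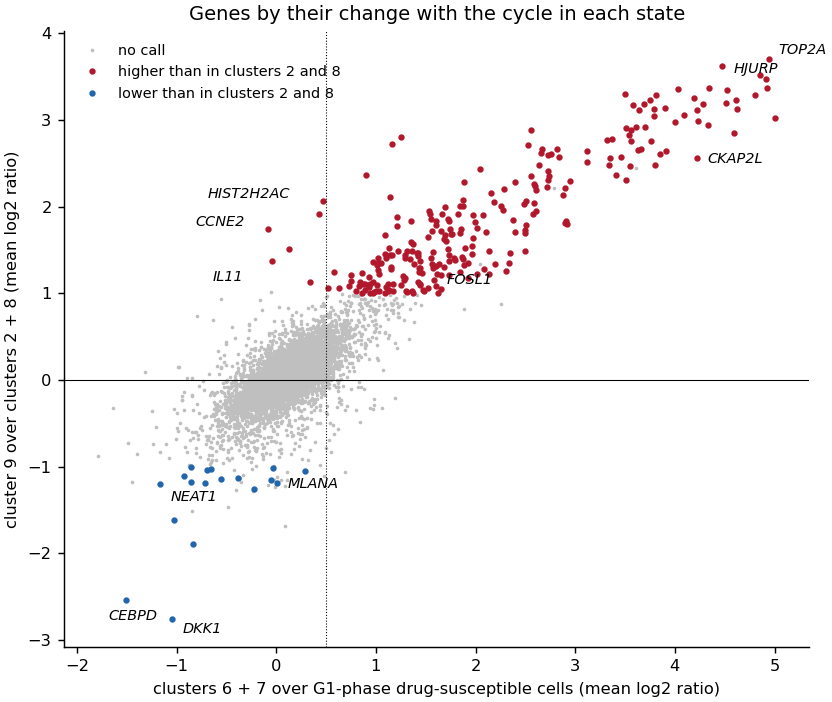
Each point is a gene; the x axis is its mean within-well log2 ratio of clusters 6 and 7 over G1-phase drug-susceptible cells and the y axis that of cluster 9 over clusters 2 and 8, with the 251 genes called higher in red and the 18 called lower in blue. Most red points lie to the right of the dotted line at 0.5 and above 1 on the y axis, and the 18 blue points lie below -1.

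Of the 18 lower genes, DKK1, a secreted Wnt inhibitor, was at 0.27, 4.23 and 23.4 CPM in cluster 9 (lowest, median and highest well) and at 12.9, 46.9 and 117 CPM in clusters 2 and 8. The transcription factor CEBPD was at 0.53, 2.85 and 5.20 CPM against 10.7, 15.7 and 59.0 CPM. The ranges overlapped for DKK1 and not for CEBPD, and the log2 ratios were -2.75 ± 0.91 and -2.54 ± 1.34. The nuclear RNA NEAT1 was at 1763, 2046 and 2351 CPM against 4212, 4480 and 6101 CPM, also with no overlap.

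IFIT2, an interferon-induced gene, had a log2 ratio of -1.89 ± 1.39, IGFBP5 had -1.61 ± 0.98, the growth factor FGF7 -1.25 ± 0.90, the nicotinamide methyltransferase NNMT -1.19 ± 0.31, the melanocyte antigen MLANA -1.18 ± 0.59 and the matricellular protein CTGF -1.15 ± 0.49. The SDs of IFIT2, IGFBP5 and FGF7 show that wells differed widely in the size of the ratio. The same direction in every well was required for a call. Several of the 18 were also lower in cycling cells of the drug-susceptible state. Pooled over wells, drug-susceptible cells labelled G1 and G2M had 50.003 and 15.8 CPM of CEBPD, 2697 and 1722 CPM of NEAT1, 12.8 and 6.29 CPM of NNMT, 66.9 and 29.7 CPM of SORBS2, 32.2 and 16.2 CPM of IGFBP5 and 64.9 and 37.3 CPM of NUPR1. Between the states, NNMT in cluster 9 was above clusters 6 and 7 (45.6 against 14.6 CPM, log2 ratio 3.07 ± 1.57), and NEAT1 was 2063 against 1233 CPM.

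Promoter sequences are shown for HJURP and CKAP2L, mitotic genes that were higher in cluster 9 than in both kinds of neighbour, and for IL11, the primed marker with the largest ratio to clusters 2 and 8 after HJURP. They are RefSeq GRCh38.p14 sequences upstream of the transcription start, on the minus strand, 5′ to 3′, and capitals mark the letters searched on both strands, TTTGAA for the CHR, CCAAT, and TGANTCA for an AP-1 site. HJURP is at chr2:233854567-233854785, CKAP2L at chr2:112764665-112764859 and IL11 at chr19:55370464-55370713.
HJURP: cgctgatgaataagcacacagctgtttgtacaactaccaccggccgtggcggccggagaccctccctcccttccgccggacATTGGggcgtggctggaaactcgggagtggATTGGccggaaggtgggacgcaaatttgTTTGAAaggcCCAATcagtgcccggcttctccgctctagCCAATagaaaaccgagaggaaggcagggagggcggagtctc
CKAP2L: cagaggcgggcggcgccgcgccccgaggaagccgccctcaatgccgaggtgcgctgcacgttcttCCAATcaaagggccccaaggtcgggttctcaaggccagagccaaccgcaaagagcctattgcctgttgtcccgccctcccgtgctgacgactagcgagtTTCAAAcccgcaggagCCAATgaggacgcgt
IL11: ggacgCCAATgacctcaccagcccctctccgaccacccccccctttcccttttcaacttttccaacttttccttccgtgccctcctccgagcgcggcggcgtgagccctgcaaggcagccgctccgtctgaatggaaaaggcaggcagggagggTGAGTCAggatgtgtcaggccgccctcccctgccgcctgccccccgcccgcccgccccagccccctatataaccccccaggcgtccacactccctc

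The sequences printed for HJURP and CKAP2L stop 31 and 55 bases short of the RefSeq start, at the start that GENCODE annotates, so they hold 219 and 195 of the 250 bases searched. Positions are counted from the RefSeq start. HJURP held the CHR letters at -111 and CCAAT, or its complement, at -169, -139, -101 and -72. CKAP2L held the CHR letters, or their complement, at -86 and at -17, the second in the bases not printed, and CCAAT at -185 and -70. IL11 held CCAAT at -245 and an AP-1 match at -96, with no CHR match in this window. Of the 251 genes higher than in clusters 2 and 8, 199 had a promoter in the RefSeq table, and 31.7% of these held the CHR letters, 65.3% CCAAT and 1.51% an AP-1 match. Over all 35116 promoters the shares were 13.3, 32.0 and 6.57%. Of 379 matched promoters of genes higher in G2M-labelled cluster 9 cells than in G2M-labelled cells of clusters 6 and 7, the shares were 10.3, 30.9 and 7.12%. These shares were not tested, and a match of letters is not a bound site.

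Against the cycling drug-susceptible clusters, cluster 9 differed in its state and much less in its G2M genes. In the 6 wells with at least 20 cells on both sides, 521 of 6347 genes were higher in cluster 9 (8.21%) and 448 were lower (7.06%). The largest ratios were those of the collagenase MMP1, SRGN, TMEM158, IGFN1, IL11, STC1, the collagen COL1A1, MYH15, BASP1 and SPOCK1. MMP1 was at 2822 against 30.8 CPM, with a log2 ratio of 7.05 ± 2.34, and IL11 at 163 against 0.77 CPM, with 6.49 ± 0.90. The lowest were the melanocyte genes DCT, MLANA, RLBP1, PMEL, SOX10 and TRPM1, with FXYD3, LINC01918, GAPDHS and SCML4. SOX10, a melanocyte lineage factor, was at 5.37 against 143 CPM.

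Many members of the state lists reached 20 CPM in only 1 of the groups, and such a gene had to differ, so the lists are counted over members that reached it in both. Of 24 primed markers 14 reached 20 CPM only in cluster 9, and 4 of the 5 that reached it in both groups were higher. Of 20 cytokines and chemokines 5 reached it, all of them only in cluster 9, so their direction was fixed by the filter. In both groups, 4 of 7 proteases and inhibitors, 3 of 4 matrix and integrin genes, with 1 lower, and 3 of 4 AP-1 factors were higher, and 5 of 5 melanocyte genes were lower. Of 51 G2M genes 1 was higher and 1 lower, with a median of -0.00 beside -0.07 over all genes. Of 25 S phase genes that reached 20 CPM in both groups 5 were higher, and 9 more reached it only in cluster 9. Cluster 9 held S-labelled cells that clusters 6 and 7 lacked. Counted in the same way, 5 of 6 replication-dependent histone genes were higher, and of 17 cyclins, CDKs and inhibitors 3 were higher and 3 lower.

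To hold the phase fixed, G2M-labelled cells of cluster 9 were compared with G2M-labelled cells of clusters 6 and 7 in 5 wells, and 506 of 6409 genes were higher (7.9%) and 484 lower (7.55%). They were also compared with all G2M-labelled drug-susceptible cells in 8 wells, where 522 of 6410 genes were higher (8.14%) and 438 lower (6.83%). Of the 506 and 484 genes, 464 and 409 were called the same way in the second comparison. Both used G2M-labelled cells of cluster 9, and clusters 6 and 7 held 745 and 730 of the 2915 G2M-labelled drug-susceptible cells. The comparisons were therefore not independent, and much of this overlap was built in. For S-labelled cells, in 7 wells, 545 of 6475 genes were higher (8.42%) and 369 lower (5.7%).

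Of 22 measured cyclins, CDKs and inhibitors 4 were higher and 3 lower in G2M-labelled cells against clusters 6 and 7. The median log2 ratio of the list was 0.26 beside -0.07 over all genes, and the 7 called genes are given here. CCND1, cyclin D1, was at 4500 CPM in G2M-labelled cluster 9 cells against 483 CPM in those of clusters 6 and 7, a log2 ratio of 3.23 ± 0.39 (n = 5 wells). The inhibitor CDKN1A (p21) was at 30.9 against 1.27 CPM, a ratio of 3.93 ± 0.64. CDKN1A reached 20 CPM only in cluster 9, so the filter favoured a higher call. E2F7, a repressor of E2F targets, had a ratio of 2.36 ± 0.44 and the CDK4 and CDK6 inhibitor CDKN2C 1.09 ± 0.43. Pooled over wells, E2F7 in G2M-labelled cells was at 61.6 CPM in cluster 9 and 9.65 CPM in all drug-susceptible cells. The second value is below 20 CPM, so the filter favoured a higher call for E2F7 as well. MYC was at 30.5 against 226 CPM (-3.04 ± 0.92), CDK2 at 21.6 against 162 CPM (-2.88 ± 0.22) and CDK6 at 24.1 against 80.2 CPM (-1.89 ± 0.58). Each of these 7 genes had the same direction in every well of all 3 phase-matched comparisons, of which those in G2M-labelled cells share cells.

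Against clusters 2 and 8, over all phases, none of these 7 genes was called. CCND1 in cluster 9 was at 3942, 4288 and 4937 CPM over all cells, and in clusters 2 and 8 at 3725, 4075 and 4803 CPM, with a mean log2 ratio of 0.09 ± 0.22. E2F7 had 0.18 ± 0.22, CDKN1A 0.40 ± 0.37, CDK6 -0.23 ± 0.37, MYC -0.47 ± 0.39 and CDK2 0.52 ± 0.41. CDKN2C had 0.82 ± 0.19 and was higher in 8 of 8 wells. Some of these levels differed by phase among the other primed cells. Pooled over wells, CCND1 in clusters 2 and 8 was at 4134 CPM in cells labelled G1 and 1932 CPM in the 52 labelled G2M, and CDK2 at 13.1 and 39.5 CPM. Melanocyte genes moved with them in the same cells, with MLANA at 51.7 and 342 CPM, PMEL at 56.9 and 243 CPM, DCT at 17.8 and 98.1 CPM and SOX10 at 6.77 and 39.0 CPM, and both CCND1 and CDK2 differed towards their levels in G2M-labelled drug-susceptible cells (388 and 163 CPM). The part of these transcripts in the differences was not tested.

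For the mitotic genes the ratio to drug-susceptible cells depended on the phase and the reference. In G2M-labelled cells, against clusters 6 and 7, 2 of 51 G2M genes were higher (median log2 ratio 0.19 beside -0.07 over all genes). Against all G2M-labelled drug-susceptible cells 4 of 51 were higher and 47 had a ratio above 0 (median 0.53 beside -0.01). In S-labelled cells 15 of 48 G2M genes were higher (median 0.84 beside 0.05) and 8 of 25 centromere and kinetochore genes. Over all genes 7.9, 8.14 and 8.42% were higher in these comparisons, in that order. Members that reached 20 CPM only in cluster 9 were not counted apart here, and for such genes the filter favoured a higher call. In G2M-labelled cells against clusters 6 and 7, MKI67 was at 546 against 503 CPM (log2 ratio 0.12 ± 0.19), ASPM at 373 against 378 CPM, CENPA at 148 against 167 CPM (-0.17 ± 0.19) and CCNB1, cyclin B1, at 304 against 308 CPM (-0.06 ± 0.47).

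**Figure D4:**
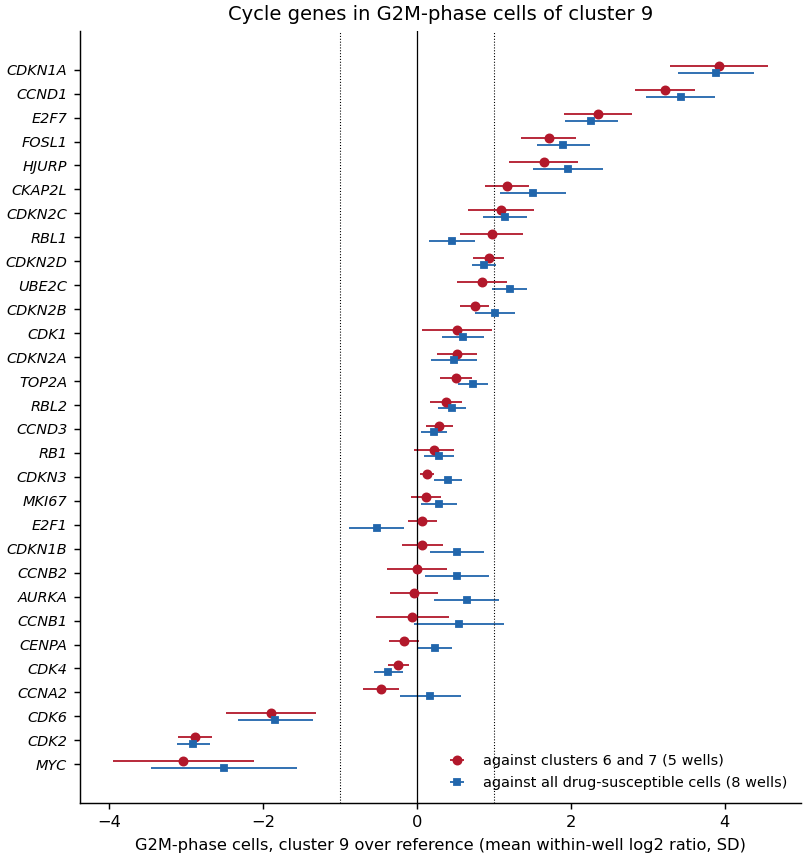
Mean within-well log2 ratio, with SD over wells, of G2M-phase cells of cluster 9 over G2M-phase cells of clusters 6 and 7 (circles, 5 wells) and over all G2M-phase drug-susceptible cells (squares, 8 wells), for cyclins, CDKs, inhibitors and selected mitotic genes; dotted lines mark 2-fold. CDKN1A, CCND1 and E2F7 lie beyond 2-fold on the right and MYC, CDK2 and CDK6 on the left, while MKI67, AURKA and CENPA lie within 2-fold.

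Within G2M-labelled cells, 7.9% of all 6409 genes were higher in cluster 9 than in clusters 6 and 7. Of the 251 genes higher in cluster 9 than in clusters 2 and 8, 18 were among them, a count near that share. They were HIST1H1A, HIST1H1B, HIST1H1D, HIST1H1E, HIST1H4C, HIST2H2AC, HJURP, CKAP2L, FOSL1, RRM2, POLD3, BARD1, PSMC3IP, MNS1, LMO7, UBALD2, NRGN and C21orf58. The 6 histone genes depended on the reference. HIST1H1B was at 150 against 30.9 CPM in clusters 6 and 7 and at 142 against 105 CPM in all G2M-labelled drug-susceptible cells, where none of 8 measured histone genes was called (median log2 ratio 0.40). RRM2, a subunit of ribonucleotide reductase, likewise had 1.18 ± 0.13 and 0.80 ± 0.26.

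HJURP, CKAP2L and FOSL1 were higher under each reference, though the references for G2M-labelled cells share cells. HJURP in G2M-labelled cells was at 181 against 57.6 CPM (1.65 ± 0.45), at 194 against 49.0 CPM in all drug-susceptible cells (1.97 ± 0.45), and in S-labelled cells at 94.2 against 23.1 CPM (1.98 ± 0.43). CKAP2L, a spindle protein, had ratios of 1.17 ± 0.28, 1.51 ± 0.42 and 1.98 ± 0.48. FOSL1, the AP-1 subunit FRA1, had 1.71 ± 0.36, 1.91 ± 0.35 and 2.12 ± 0.66. UBE2C had ratios of 0.85 ± 0.32, 1.21 ± 0.23 and 1.22 ± 0.29 and was not called against clusters 6 and 7.

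FOSL1 was at 247, 334 and 419 CPM in cluster 9, at 76.8, 139 and 182 CPM in clusters 2 and 8 and at 69.9, 92.2 and 124 CPM in clusters 6 and 7. The wells of cluster 9 lay above all wells of both. Pooled by phase, FOSL1 in cluster 9 was at 441 CPM in cells labelled G1, 285 in S and 329 in G2M. HJURP was at 83.8, 96.3 and 192 CPM, against 1.74, 20.8 and 50.1 CPM in drug-susceptible cells of the same phases. The 71 cells of cluster 9 labelled G1 held other mitotic transcripts as well. All 52 G2M genes were above their pooled level in G1-labelled drug-susceptible cells, and 20 were above that in G2M-labelled drug-susceptible cells. TOP2A was at 188 CPM in them, against 9.10 CPM in G1-labelled and 242 CPM in G2M-labelled drug-susceptible cells, and MKI67 at 313 against 48.5 and 460 CPM. UBE2C, at 463 CPM, was above the 371 CPM of G2M-labelled drug-susceptible cells, as HJURP was. The label G1 thus did not mark cells low in mitotic transcripts in cluster 9.

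The treatment experiment gave cells that had no part in defining cluster 9. It held 40021 WM989 cells in 8 libraries, 2 for each of Control, TGFB1, TGFBRi and PI3Ki, with 70239657 to 122420544 UMIs a library. The labels call the libraries of each treatment Mix and Primed, whereas the cell table calls them r1 and r2. These names could not be matched, and libraries served as blocks only. Primed cells numbered 4077, of which 1577 and 1757 came from the TGFB1 libraries, 25 and 70 from the PI3Ki libraries and 94 to 271 from each of the other 4. Their S and G2M share was 31.4 to 55.1% per library, against 56.2 to 69.4% for drug-susceptible cells. Per the study's methods, a pair of parallel cultures was each divided among 4 plates with a different treatment on each, so the libraries are separate plates that descend from 2 cultures.

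Counts of primed cells in S or G2M and of primed cells in G1 were summed per library and compared with edgeR's quasi-likelihood test with the library as a block. Of 7989 genes, 1339 were higher in cycling primed cells (16.8%) and 1710 lower (21.4%) at a Benjamini-Hochberg adjusted p under 0.05. Without the TGFB1 libraries the counts were 588 and 313, without TGFB1 replicate 2 alone 870 and 817, and without TGFB1 replicate 1 alone 681 genes were lower. All 6 markers of cluster 9 that passed the edgeR filter were higher, and FAP did not pass it. HJURP belongs to the genes commonly used to score G2M, and phase labels stand beside S and G2M scores in the cell table, so its change is not independent of the labels. IL11, STC1, AXL, IGFN1 and PLAUR are not in the common scoring lists.

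IL11 in cycling primed cells was at 50.7 CPM in the lowest library, 124 in the median and 281 in the highest, against 17.5, 64.6 and 140 CPM in G1. It was higher in 8 of 8 libraries, with a log2 fold change of 1.01 (SE 0.10, adjusted p = 3.6e-10). STC1 had 0.74 (SE 0.11, adjusted p = 1.7e-06, higher in 7 of 8 libraries), AXL 0.65 (SE 0.08, adjusted p = 1.3e-07, 7 of 8), IGFN1 0.55 (SE 0.10, adjusted p = 8.8e-05, 6 of 8) and PLAUR 0.47 (SE 0.11, adjusted p = 0.0007, 6 of 8). Without the TGFB1 libraries IGFN1 and PLAUR lost their calls (log2 fold changes 0.37 and 0.42, edgeR adjusted p = 0.133 and 0.0919). Under DESeq2 they lost them as well (0.40 and 0.39, adjusted p = 0.101 and 0.145). FOSL1 was at 83.4, 220 and 380 CPM in cycling and 38.7, 91.3 and 123 CPM in G1 primed cells, a log2 fold change of 1.29 (SE 0.09, adjusted p = 3.7e-14), higher in 8 of 8 libraries.

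Of the 251 genes higher in cluster 9 than in clusters 2 and 8, 239 were tested and 238 were higher in cycling primed cells here. Of these 239, 61 were in the common S or G2M scoring lists, all of them higher, and 177 of the other 178 were higher. The comparison is itself drawn by phase, so these counts are not independent of the phase labels. Of the 18 lower genes 16 were tested and 15 were lower. Without the TGFB1 libraries 213 of 219 tested genes were higher and 10 of 16 were lower. CEBPD fell by 1.36 on the log2 scale (SE 0.17, adjusted p = 1.3e-07, lower in 8 of 8 libraries), IGFBP5 by 0.83, NNMT by 0.80 and NEAT1 by 0.73. DKK1 fell by 0.95 (SE 0.27, adjusted p = 0.0066) although 3 of 8 libraries were higher. MLANA went the other way, rising by 0.24 (SE 0.09, adjusted p = 0.027, 7 of 8 libraries). Without the TGFB1 libraries DKK1 and MLANA lost their calls (edgeR adjusted p = 0.668 and 0.424).

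Lists of the primed state are read against the 21.4% of all genes that were lower and the 16.8% that were higher. Of 20 primed markers 10 were lower, among them EGFR, PDGFRB and FN1, and AXL and VEGFA were higher, with a median log2 fold change of -0.22 beside -0.04 over all genes. Of 12 proteases and inhibitors 8 were lower and PLAUR was higher. Of 17 matrix and integrin genes 8 were lower and ITGA5 was higher. Of 11 TGF-beta targets 8 were lower and ID1 was higher, and 4 of 11 ERK feedback genes were lower. Of 7 AP-1 factors FOSL1 was higher and FOS and JUNB were lower. Many of these calls depended on the TGFB1 libraries, though AXL, ID1 and FOSL1 stayed higher without them. Without them 4.42% of 7076 genes were lower and 8.31% higher, and the lower genes numbered 5 of 18 primed markers, 4 of 12 proteases and inhibitors, 2 of 16 matrix and integrin genes, 2 of 11 TGF-beta targets, with 2 higher, and 1 of 11 ERK feedback genes. Among the genes named as higher, VEGFA and ITGA5 also lost their calls (edgeR adjusted p = 0.932 and 0.352). EGFR and PDGFRB then did not pass the filter on low counts and were not tested. By the smallest p outside the cycle genes, those named as higher were HIST1H3D, HIST1H1D, HIST2H2AC, HIST1H2AH and POLD3. Their log2 fold changes ran from 1.52 to 3.11. These are replication-dependent histone genes and, for POLD3, a member of the S phase list. The drug-susceptible clusters that defined the cycle genes held no cells labelled S, so outside does not mean unrelated to S phase. HIST1H3D had no counts in the untreated table, so it could not be classed there. Those named as lower were CADPS, SNHG18, CBLB, MXD4, a MAX partner that opposes MYC, and SORBS2, from -1.41 to -0.88.

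**Figure D5:**
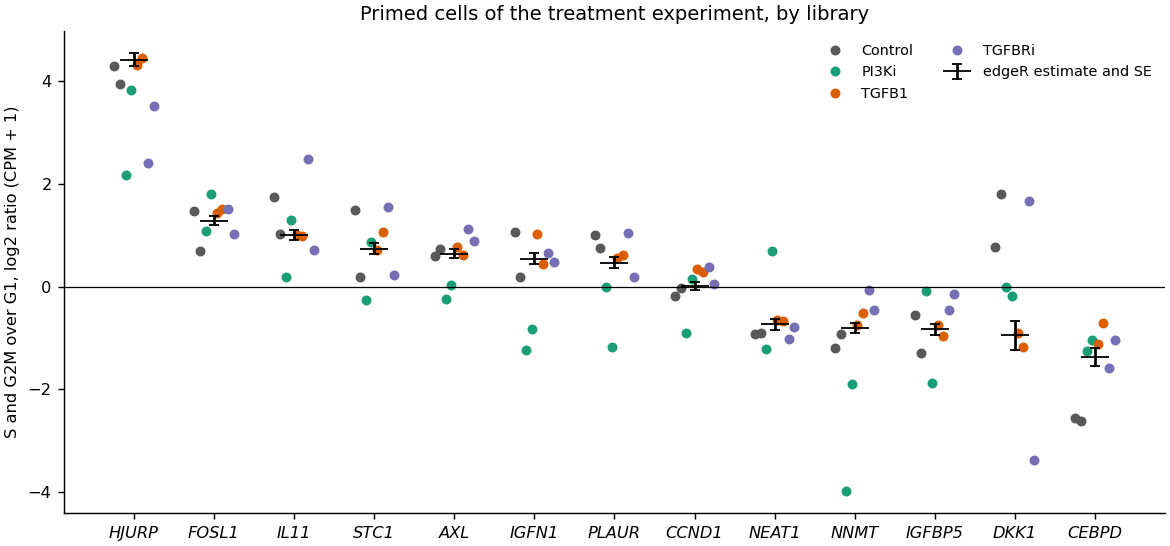
Log2 ratio of S and G2M to G1 primed cells (CPM plus 1) in each library of the treatment experiment, coloured by treatment, with the edgeR estimate and its SE in black. HJURP and FOSL1 are above 0 in all 8 libraries and CEBPD and IGFBP5 below 0 in all 8, and the PI3Ki points, from 25 and 70 primed cells, scatter most for NNMT and IGFN1.

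Whether the cycle moved a gene by a different amount in primed and drug-susceptible cells was tested with an interaction term in the same libraries. Of 14438 genes, 305 had a larger difference in primed cells (2.11%) and 186 a smaller one (1.29%). Without the TGFB1 libraries these counts were 68 and 45, without TGFB1 replicate 1 they were 154 and 49, without TGFB1 replicate 2 they were 118 and 59, and without Control replicate 1 they were 189 and 112. None of the 7 markers was called by edgeR or DESeq2, and none had an unadjusted edgeR p under 0.05. The largest marker estimate in absolute size was that of IGFN1, at -0.59 (SE 0.68, adjusted p = 0.74), and HJURP had 0.26 (SE 0.26, adjusted p = 0.68). FOSL1 had 0.11 (SE 0.20, adjusted p = 0.85), having risen with the cycle in 8 of 8 libraries in both states.

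With all libraries the G2M genes moved further in primed cells, with 35 of 52 called larger, 1 smaller and a median of 0.81 beside -0.02 over all genes. This list was not counted without the TGFB1 libraries. In the untreated table, by cluster, the G2M median was 2.67 for cluster 9 over clusters 2 and 8. It was larger, at 3.54, for clusters 6 and 7 over G1-labelled drug-susceptible cells. Among cycling cells the G2M share was 60.4 and 60.1% of primed cells and 43.9 and 48.2% of drug-susceptible cells in the TGFB1 libraries. It was 62.2 and 56.7% against 44.2 and 44.0% in the Control libraries, 44.6 and 47.7% against 42.1 and 45.6% in the TGFBRi libraries, and 36.4 and 50% against 40.04 and 42.4% in the PI3Ki libraries, where 1 of the 2 was lower in primed cells. With only G2M-labelled cells set against G1, 30 of 52 genes were called larger and 1 smaller, with a median of 0.73 beside -0.005 over all genes. Genes of this list are commonly used to score G2M, so these counts are not independent of the phase labels. The part of the G2M share in the differences was not tested. CCNB1 had an interaction of 1.22 (SE 0.20, adjusted p = 0.00022), while CKAP2L had -0.98 (SE 0.17, adjusted p = 0.00061), CDKN1A -0.87 (SE 0.22, adjusted p = 0.023) and E2F7 -0.85 (SE 0.14, adjusted p = 0.00027). E2F7 was not called with only G2M-labelled cells (-0.31, adjusted p = 0.26). CCNB1, CKAP2L and CDKN1A were not checked singly in that setting or without the TGFB1 libraries.

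Set side by side within S and G2M cells of each library, with no test because the states come from clustering, primed cells were above drug-susceptible cells in 8 of 8 libraries for CKAP2L (mean log2 ratio 1.06), E2F7 (1.39), CCND1 (2.499), CDKN1A (3.44) and FOSL1 (1.43). HJURP was above in 7 of 8 libraries (0.62 ± 0.35), a smaller ratio than in the untreated table. CDK2 (-1.65) and MYC (-0.78) were below in 8 of 8. CDK6, which was low in cluster 9, had 0.06 ± 0.35 and was above in 5 of 8 libraries, so its difference was not seen here. MKI67 had 0.03 ± 0.18. Between cycling and G1 primed cells, CDKN2C had a mean log2 ratio of 1.09 and CDK2 of 0.74, each above 0 in 8 of 8 libraries.

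WM983B is a second melanoma line, with 1449 cells in 1 library, so nothing was tested. Of 731 primed cells 62.2% were in S or G2M, against 71.03% of drug-susceptible cells. In cycling and G1 primed cells IL11 was at 38.4 and 5.73 CPM, FOSL1 at 112 and 40.4 CPM and HJURP at 69.0 and 1.56 CPM. PLAUR was at 118 and 117 CPM, AXL at 81.6 and 65.1 CPM, FAP at 7.26 and 9.10 CPM and STC1 at 2.81 and 7.10 CPM, so FAP and STC1 were below their G1 levels. IGFN1 had 3 UMIs in cycling and 0 in G1 primed cells. CDK6 in cycling primed cells was above cycling drug-susceptible cells, at 91.4 against 56.4 CPM, unlike in cluster 9. HJURP in cycling drug-susceptible cells was at 55.6 CPM.

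ATAC-seq compared WM989 cells sorted as EGFR-NGFR-High with the libraries labelled Mix, 3 of each. The study's methods name a sort negative for both markers and no mixed one for this assay, and the labels do not say whether Mix is that sort. The measure was the highest MACS2 fold enrichment of a peak within 1 kb of a gene's start, with 0 where no peak was listed. IGFN1 had 26.2, 18.0 and 16.4 in EGFR-NGFR-High and 4.48, 4.24 and 5.32 in Mix. IL11 had 20.8, 20.3 and 12.4 against 4.03, 0 and 7.26, and FAP had 24.1, 15.6 and 15.4 against 6.72, 5.66 and 4.84. For these 3 genes the groups did not overlap (two-sided exact permutation p = 0.1 each, the smallest that 3 libraries against 3 allow, adjusted p = 0.23 over 7 genes).

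HJURP had 77.1, 66.2 and 68.0 in EGFR-NGFR-High and 68.1, 65.5 and 67.3 in Mix, and the groups overlapped (exact permutation p = 0.5). STC1 (8.53 against 5.78, exact permutation p = 0.2) and PLAUR (37.0 against 21.5, exact permutation p = 0.3) overlapped as well. PLAUR had 66.4, 19.8 and 24.8 in EGFR-NGFR-High and 22.8, 19.8 and 21.8 in Mix, and without replicate 1 its difference was 1.54 in place of 15.5. The STC1 difference was 1.05 without replicate 2, in place of 2.75. AXL had a peak within this distance in 1 EGFR-NGFR-High library and in no Mix library. Within 5 kb AXL had 12.2, 10.4 and 9.92 in EGFR-NGFR-High and 6.72, 6.598 and 6.29 in Mix, with no overlap, and 4 of 7 markers then did not overlap, whereas PLAUR was lower in EGFR-NGFR-High (61.9 against 64.9). So 3 of 7 markers were higher without overlap, where 11.4% of 13626 protein-coding starts with a peak were. The ATAC-seq sorts were not split by cell cycle phase.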

How the data were processed

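UMI counts per gene and cell were deposited by the authors (Cell Ranger, build hg38), with cell tables that give cluster, state, phase, rep and well labels and the mitochondrial percent as deposited. The authors filtered cells on gene number and mitochondrial percent in Seurat, and no further cell filter or doublet caller was applied here. ATAC-seq peaks were deposited per library with the fold enrichment (a ratio) that the authors obtained with Bowtie2 2.3.4.1, SAMtools 1.1 and MACS2 2.1.1.20160309. Phase labels stand beside deposited S and G2M scores, and the genes scored are not given in the sources used here.

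Counts were summed per well and cluster and turned into CPM over all genes of the table (pseudocount 1, at least 20 CPM in either group, at least 20 cells per well and group, 10 for comparisons with all drug-susceptible cells of a phase) with Python 3.11.15. In the treatment experiment sums of at least 10 cells were fitted with edgeR 4.0.16 in R 4.3.3, with library as block, since all sums of a library share its preparation. DESeq2 1.42.0 was an alternative. ATAC-seq values were compared with exact permutation tests (SciPy 1.17.1). The scripts were tested on simulated data.

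Named genes were the 7 markers, the 10 largest ratios each way outside the cycle and the 5 largest inside it against clusters 2 and 8, the 10 each way against clusters 6 and 7, members of 20 gene lists, and for each edgeR test 5 each way outside the cycle with the smallest p. FOSL1, CKAP2L and other genes of the intersection were named as list members or after their values were seen. Members and lists were chosen with earlier results of these data known. The phase labels and clusters are the authors' and were not remade. Alternatives covered scaling, filters, pseudocount, fold, phase, single clusters, reps, blocks and leaving out wells or libraries. EGFR_High and NGFR-High ATAC-seq libraries were not tested here.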

Additional observations from a re-analysis of the deposited data

Results flagged for a closer look

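For 2 of 16 within-well values checked, a single well lay far from the other wells of its group by Dixon's criterion, which chance meets in about 1 in 20 groups. These were the log2 ratio of STC1 to clusters 2 and 8, at -0.45 in well 8, and that of AXL, at -0.066 in well 3. Both wells were on the opposite side of 0 from the other 7.

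The cycling difference in the treatment experiment differed between primed and drug-susceptible cells by the edgeR interaction term for the genes given here, and for others of the G2M list. It was larger in primed cells for ANTXR2 (1.35), EXOSC6 (0.60), KLHL23 (0.65), AL035541.1 (0.58) and CTPS1 (0.58), and for the cyclins and CDKs CCNB1 (1.22), CCNB2 (1.31), CDK1 (1.01), CCNE1 (0.83), CDK2 (0.58) and CDK6 (0.53) and the phosphatase CDKN3 (1.25). It was smaller for PIK3R1 (-0.71), E2F7 (-0.85), VWA5A (-0.70), LUM (-0.84), HERPUD1 (-0.71), CDKN1A (-0.87) and CKAP2L (-0.98). The values are differences of log2 fold changes. The calls of the cyclins and CDKs, CDKN3, CDKN1A and CKAP2L were not checked singly under any alternative. Of the other genes, KLHL23, AL035541.1, CTPS1, VWA5A and LUM lost their calls without the TGFB1 libraries (edgeR adjusted p from 0.0730 for KLHL23 to 0.673 for VWA5A). Their estimates in that fit, which had fewer libraries, were 0.74, 0.51, 0.43, -0.34 and -0.55. E2F7 lost its call with G2M-labelled cells alone set against G1 (adjusted p = 0.258). Most primed cells in these fits came from the TGFB1 libraries, whose part in the differences was tested only by leaving them out.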

How the results depend on the processing

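The share of primed cells in cluster 9 was 27.0% within r2. Of the 140 alternatives to counts and shares, 83 stayed close to the reported value, 33 were weaker, 23 stronger and 1 moved. Close meant within 1.5 times the value for counts and within an SD for shares. Genes higher than in clusters 2 and 8 (251) numbered 159 with a filter at 50 CPM, 466 at 1.5-fold, 136 at 3-fold and 130 in G2M-labelled cells summed over wells. Genes lower (18) numbered 33 with counts summed over wells, 65 with no filter, 8 with a pseudocount of 10, 118 at 1.5-fold, 4 at 3-fold, 114 in G1-labelled cells of well 6 alone, 41 against cluster 2 alone, and 78 and 76 in G2M-labelled and G1-labelled cells summed over wells. Genes outside the cycle (6) numbered 10 with summed counts, 18 within r1, 16 with no filter, 3 with a pseudocount of 10, 76 at 1.5-fold, 3 at 3-fold, 19 in G1-labelled cells of well 6, 10 against cluster 2 alone, 14 against cluster 8 alone, 3 and 29 with cycle limits of 0.2 and 1, and 74 and 33 in G2M-labelled and G1-labelled cells summed over wells. Against clusters 6 and 7, genes higher (521) numbered 1146 with no filter, 295 at 50 CPM, 914 at 1.5-fold and 289 at 3-fold, and genes lower (448) numbered 909, 253, 976 and 217, and 297 with a pseudocount of 10. No well held 20 G2M-labelled cells of both cluster 9 and clusters 2 and 8, so that comparison was not run within wells. Phase-restricted sums over wells were added after seeing the data. STC1 against cluster 2 alone reversed to -0.0088. Scaling by TMM moved the median of all genes from 0.08 to 0.01 against clusters 2 and 8 and from -0.07 to -0.14 against clusters 6 and 7. The cause of these changes was not tested.

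In the treatment experiment, without the replicate block (library), cycling genes numbered 648 higher and 278 lower, and genes with an interaction 105 larger and 17 smaller, and IL11, STC1, AXL, IGFN1 and PLAUR lost their calls (adjusted p from 0.062 for IL11 to 0.44 for IGFN1), as did SORBS2 (0.0506) and the interaction calls of AL035541.1 (0.527), VWA5A (0.158) and LUM (0.110). DESeq2 called 1053 lower. Without the TGFB1 libraries the counts were 588 and 313, and 68 and 45 for the interaction. Among the genes whose interaction was checked singly there, VWA5A, LUM, KLHL23, AL035541.1 and CTPS1 lost their calls. Their estimates were then -0.34, -0.55, 0.74, 0.51 and 0.43, beside -0.70, -0.84, 0.65, 0.58 and 0.58 with all libraries. Leaving out each library gave 870 to 1649 higher and 681 to 1913 lower, and 118 to 304 and 49 to 172 for the interaction. The counts fell by over 1.5 times without TGFB1 replicate 2 (870 and 817; 118 and 59), without TGFB1 replicate 1 (681 lower; 154 and 49), without Control replicate 1 (189 and 112), and for smaller interactions without Control replicate 2 or TGFBRi replicate 1 (118 each). VWA5A lost its call without TGFB1 replicate 2 (adjusted p = 0.061). For ATAC-seq, pairing by replicate number put 6 of 7 markers higher in all 3 pairs, with 0.25 the smallest sign test p, but the numbers did not pair the libraries (correlations of deviations from -0.01 to 0.02). Without each replicate in turn 4 markers did not overlap. With peaks within 5 kb PLAUR reversed to -2.96 and AXL moved from 1.29 to 4.30, without overlap, so that 4 markers did not overlap.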
